A study of Homo sapiens with 6 samples.

Results

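SPATA18 and 9 other mitophagy genes, 10 of the 17297 genes in the table, were followed by RNA-seq in LNCaP cells. LNCaP is an established line of human prostate cancer cells with luminal and androgen-responsive features. The 9 are BNIP3, BNIP3L, PINK1, FUNDC1, BCL2L13, PHB2, FKBP8, OPTN and TAX1BP1. They were taken by name, with earlier results of these data known. SPATA18, by contrast, was chosen by its measured rise in the line that overexpresses GNA13. Its difference between the lines is therefore a description and carries no test. All 10 had a row in the table. The cells stably carried either the empty retroviral vector (pBabe-vector, genotype given as WT) or a GNA13 construct (pBabe-GNA13, genotype given as GNA13 overexpression), and 3 cultures of each line, grown for 48 h in RPMI with serum, gave 6 libraries. Each condition is 1 stable line, so the replicates are cultures of that line and the p-values measure the spread between those cultures. Where pairs of cultures are taken as a block, the p-values measure only the spread left after what a pair shares is removed. GNA13 encodes the G protein subunit Gα13, and its transcript was 65.4 to 76.7 CPM (counts scaled by library total) in the pBabe-vector libraries and 747 to 886 CPM in the pBabe-GNA13 libraries (log2 fold change 3.54, standard error 0.12, edgeR's quasi-likelihood test, adjusted p = 9.12e-05), which matched the labels.

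Mitophagy is the selective removal of mitochondria by autophagy. One route starts with the kinase PINK1, which gathers on damaged mitochondria, triggers the building of ubiquitin chains, and so marks the organelle for adaptors such as OPTN and TAX1BP1 that bind ubiquitin and the ATG8 proteins of the autophagosome. Another route uses receptors that sit in the outer mitochondrial membrane and bind ATG8 proteins directly, among them BNIP3, BNIP3L, FUNDC1, BCL2L13 and FKBP8, while PHB2 is an inner membrane protein that becomes a receptor when the outer membrane ruptures. SPATA18, also called Mieap, acts in the repair or removal of damaged mitochondria and is a transcriptional target of p53, and BNIP3 and BNIP3L are targets of the hypoxia-inducible factor HIF.

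Because these 2 transcriptional inputs differ between members, the 5′ flanks of SPATA18 and BNIP3 are shown first, from the RefSeq promoter table of GRCh38.p14. The SPATA18 flank is chr4:52051054-52051303 on the plus strand, and the BNIP3 flank is chr10:131981968-131982173 on the minus strand. Both are printed 5′ to 3′ on the strand of the gene and end next to the first base of the gene. Capitals mark the only place in either flank that holds ACGTG, the core of a hypoxia response element, searched on both strands.
SPATA18: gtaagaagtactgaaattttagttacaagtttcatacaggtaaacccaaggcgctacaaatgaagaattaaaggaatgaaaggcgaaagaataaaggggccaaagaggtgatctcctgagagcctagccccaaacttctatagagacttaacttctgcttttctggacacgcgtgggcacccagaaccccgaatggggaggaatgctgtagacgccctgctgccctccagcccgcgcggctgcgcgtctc
BNIP3: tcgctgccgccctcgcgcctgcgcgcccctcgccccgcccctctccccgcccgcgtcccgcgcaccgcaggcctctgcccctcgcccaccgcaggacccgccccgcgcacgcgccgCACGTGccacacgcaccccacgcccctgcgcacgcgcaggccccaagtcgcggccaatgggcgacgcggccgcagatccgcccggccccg
The 2 matches in BNIP3 are the plus and minus reading of the same palindrome CACGTG, so they overlap and are 1 place. ACGTG was present in 14.98% of 34796 promoter windows cut to the 206 bases of the BNIP3 flank, and in 18.47% of windows of 250 bases. The SPATA18 flank held no ACGTG and no exact match to the p53 half-site, which occurred in 5.587% of windows of its length. GC content was 50% in the SPATA18 flank and 82.5% in the BNIP3 flank, against medians of 58% and 57.3% over all windows of the same lengths. A match is a description of the letters, and its absence says only that they are not in this window.

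SPATA18 (chromosome 4, 52051304 to 52097299, plus strand, GRCh38) was about 8 times higher in pBabe-GNA13. The 3 pBabe-GNA13 libraries held 326 reads (the library tagged std), 390 reads (replicate 2) and 342 reads (replicate 3). The pBabe-vector libraries held 62 reads (replicate 1, also tagged std), 49 reads (replicate 2) and 28 reads (replicate 3). All 3 pBabe-GNA13 libraries were therefore well above every pBabe-vector library, and the lowest of the 6 was replicate 3 of pBabe-vector. After normalization by TMM, the level was 10.0 ± 1.37 CPM (SD, n = 3) in pBabe-GNA13 and 1.27 ± 0.34 CPM (SD, n = 3) in pBabe-vector, a ratio of 7.93 and a log2 fold change of 2.98. In bulk RNA, more cells with the transcript and more transcript per cell cannot be told apart.

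The size of the SPATA18 difference varied between pairs of cultures. Libraries that share a replicate number or the std tag were treated as pairs, since they deviated together from the mean of their line. The tagged pBabe-GNA13 library also carries the number 2 in its column heading, and it was paired by its tag, not by that number. The ratio of pBabe-GNA13 to pBabe-vector was 5.90 in the std pair, 7.92 in the pair of replicate 2 and 11.4 in the pair of replicate 3. The highest ratio came from the pair whose pBabe-vector library was the lowest of all 6. The highest SPATA18 level over the lowest was 1.31 within pBabe-GNA13, where the median over 14059 genes with a mean of at least 1 CPM was 1.27, and 1.69 within pBabe-vector, where the median was also 1.27. Leaving out each library in turn gave log2 fold changes of 2.78 to 3.11. Relative to the median of chromosome 4, which was −0.04, the log2 fold change was 3.01.

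**Figure D1:**
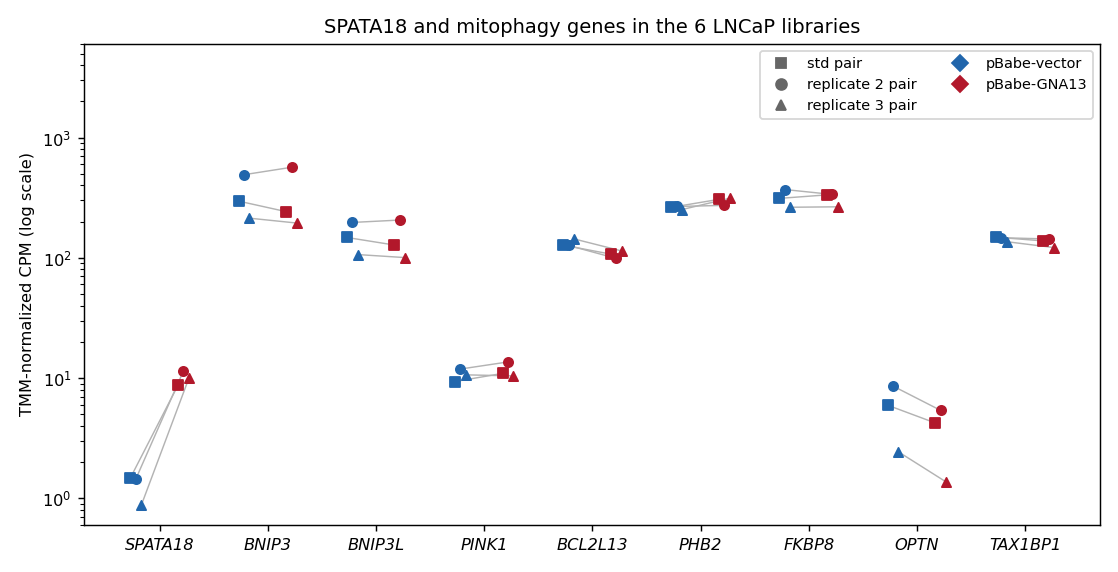
TMM-normalized CPM on a log axis for 9 of the 10 genes in the 6 libraries, with pBabe-vector in blue, pBabe-GNA13 in red, marker shapes for the pairs and grey lines joining each pair. FUNDC1 is left out because it had at most 3 reads in any library. SPATA18, which was chosen for its rise, goes from 0.87 to 1.48 CPM in pBabe-vector to 8.73 to 11.5 CPM in pBabe-GNA13. BCL2L13 and PHB2 separate the lines without overlap by a small amount, and BNIP3 and BNIP3L spread by library rather than by line.

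Per kilobase of annotated exon, SPATA18 was among the lower members. It had 0.25 CPM per kb in pBabe-vector, below PINK1 at 2.20 and OPTN at 1.10. In pBabe-GNA13 it had 2.02 ± 0.28 CPM per kb, between OPTN at 0.71 ± 0.40 and PINK1 at 2.41 ± 0.35, and it differed from PINK1 by about 1 SD. FKBP8 was highest in both lines, at 112 ± 18.9 CPM per kb in pBabe-vector, followed by BNIP3 at 82.3 ± 35.2 and PHB2 at 61.7 ± 1.84. These neighbours in the order overlapped within their SD for FKBP8 and BNIP3 and for BNIP3 and PHB2. BNIP3L followed at 36.2 ± 10.9, and BCL2L13 at 17.3 ± 1.25 and TAX1BP1 at 15.7 ± 0.73 lay close together. In pBabe-GNA13, BCL2L13 fell below TAX1BP1 in this order, at 13.9 ± 1.00 against 14.7 ± 1.24 CPM per kb, a gap smaller than either SD.

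None of the 9 mitophagy genes other than SPATA18 was called different between the lines with line as the only term (edgeR, adjusted p under 0.05), where 0.139% of all genes were called. At an unadjusted p under 0.05 the count was 1, BCL2L13, against 8.46% of all genes, and DESeq2 called 0 of the 9, against 1.57% of all genes. With the pairs as a block, 3 of the 9 were called, against 19.7% of all genes. PHB2 was higher (9.32% of all genes were called higher with the block), and BCL2L13 and OPTN were lower (10.4% were called lower). With each chromosome set to its own median as well, 0 were called higher and 2 lower, BCL2L13 and OPTN, against 6.8% and 7.07% (13.9% in either direction). The median log2 fold change of the 8 genes above the floor of 3 reads was −0.03, next to −0.0013 over all genes. Their log2 fold changes ran from −0.63 (OPTN) to 0.19 (PHB2). SPATA18 was at 2.98, but it was chosen for its rise, so its larger size beside them follows from the choice. The lines did not overlap for 2 of the 9, as for 14.1% of all genes.

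BCL2L13, an outer membrane receptor of the BCL2 family, was lower in pBabe-GNA13 (chromosome 22, 17628855 to 17730855). Its levels were 107, 98.8 and 114 CPM in the pBabe-GNA13 libraries (std, replicate 2, replicate 3) and 127, 127 and 144 CPM in the pBabe-vector libraries in the same order. Every pBabe-GNA13 library was below every pBabe-vector library, as for 6.79% of all genes. The means were 107 ± 7.64 and 133 ± 9.55 CPM (SD, n = 3), the smallest two-sided p of an exact permutation test of 3 against 3 libraries is 0.1, and that was its value here. The log2 fold change was −0.31, with a standard error of 0.10 and an edgeR adjusted p of 0.411 without the block and 6.40e-05 with it. With any pair left out, the adjusted p with the block was at most 0.00126. The genes of chromosome 22 had a median of −0.15, and relative to it BCL2L13 was −0.16 (edgeR adjusted p = 0.0362 with the block).

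PHB2, a prohibitin that scaffolds the inner mitochondrial membrane, was slightly higher (chromosome 12, 6965327 to 6970780). It had 306, 273 and 313 CPM in the pBabe-GNA13 libraries and 263, 267 and 252 CPM in the pBabe-vector libraries. The lines did not overlap, as for 7.3% of all genes in that direction, but the replicate 2 libraries were close to each other, with a ratio of 1.02. The log2 fold change was 0.19, with a standard error of 0.10. The edgeR adjusted p was 0.702 without the block, 0.0148 with it, and 0.239 with the block and without the pair of replicate 3. The genes of chromosome 12 had a median of 0.29, and relative to it PHB2 turned to −0.11 and was not called (edgeR adjusted p = 0.217 with the block). The small RNA gene SCARNA12 lies inside it, and its 1 annotated pseudogene was not a row of the table.

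OPTN, an adaptor that binds ubiquitin chains on mitochondria, was the least abundant receptor or adaptor apart from FUNDC1 (chromosome 10, 13099449 to 13138308). Its levels were 4.23, 5.38 and 1.37 CPM in the pBabe-GNA13 libraries and 5.94, 8.56 and 2.43 CPM in the pBabe-vector libraries. Replicate 2 was the highest and replicate 3 the lowest in each line, and the lines overlapped, yet the pBabe-GNA13 library was the lower one in 3 of 3 pairs. The pair ratios were 0.712 (std), 0.628 (replicate 2) and 0.562 (replicate 3). With line only the log2 fold change was −0.63, with a standard error of 0.56 and an edgeR adjusted p of 0.902. With the block the standard error was 0.14 and the adjusted p 0.00161, and at most 0.0171 with any pair left out. Relative to chromosome 10 the change was −0.59 (edgeR adjusted p = 0.00454 with the block). Limma-trend with the block, chosen after seeing the data, did not call OPTN (adjusted p = 0.0770).

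**Figure D2:**
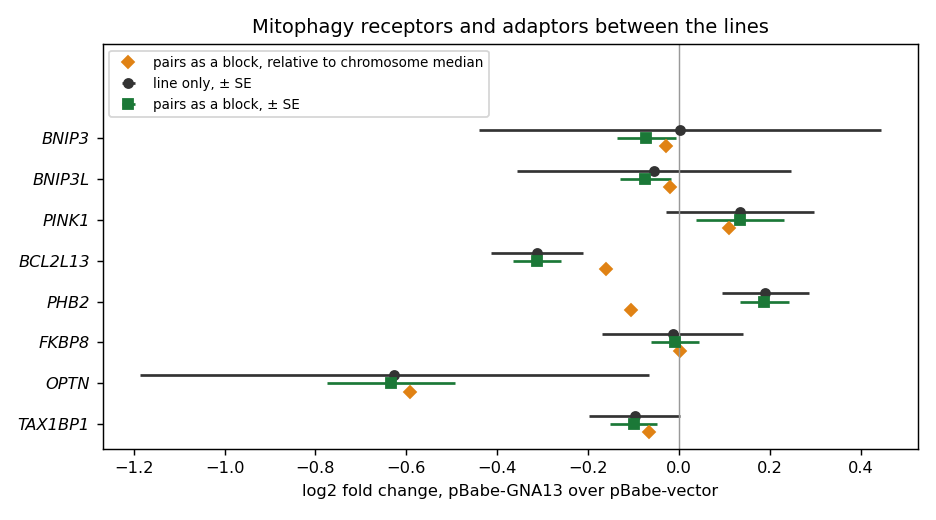
Log2 fold change of pBabe-GNA13 over pBabe-vector for 8 mitophagy genes, with black circles for the fit on line only, green squares for the fit with pairs as a block (bars ± standard error for both) and orange diamonds for the block relative to the chromosome median. OPTN (−0.63) has the widest bar without the block, and PHB2 moves from 0.19 to −0.11 relative to chromosome 12.

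BNIP3, a receptor of the outer membrane, had nearly equal means in the lines and varied much between cultures (chromosome 10, 131967684 to 131981967). It had 242, 566 and 194 CPM in the pBabe-GNA13 libraries and 296, 491 and 213 CPM in the pBabe-vector libraries. Replicate 2 was the highest and replicate 3 the lowest in both lines, and the ranges overlapped almost fully. The means were 334 ± 202 and 333 ± 142 CPM (SD, n = 3), with a log2 fold change of 0.0026 (95% interval −1.03 to 1.03, edgeR adjusted p = 1). With the block the change was −0.07 (95% interval −0.20 to 0.06, edgeR adjusted p = 0.500). Without the pair of replicate 2 it was −0.22 and called with the block (edgeR adjusted p = 0.00491). BNIP3 was higher in pBabe-GNA13 in the pair of replicate 2 and lower in the other pairs. Gencode 44 names 44 pseudogenes of BNIP3, none of which was a row of the table. How reads that match more than 1 place were counted is not given in the sources used here, so the level of BNIP3 may be affected by them.

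BNIP3L, also called NIX, the receptor that clears mitochondria from maturing red cells, showed the same order of cultures (chromosome 8, 26383054 to 26505636). It had 128, 206 and 100 CPM in the pBabe-GNA13 libraries and 148, 197 and 106 CPM in the pBabe-vector libraries. Again replicate 2 was highest and replicate 3 lowest in each line, with overlap between the lines. The log2 fold change was −0.05, with a standard error of 0.30 and an edgeR adjusted p of 1, and −0.07 with the block (95% interval −0.19 to 0.04, edgeR adjusted p = 0.401).

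BNIP3 spread more between cultures of 1 line than most genes did. The highest library over the lowest was 2.91 in pBabe-GNA13 and 2.30 in pBabe-vector, ratios that 1.79% and 4.92% of 14059 genes exceeded. For BNIP3L the ratios were 2.05 and 1.85, and for OPTN they were 3.93 and 3.52. Only 0.711% and 1.22% of genes had larger ratios than OPTN in pBabe-GNA13 and pBabe-vector. By contrast, the ratios of BCL2L13, PHB2 and TAX1BP1 were at most 1.18 in either line, below the median of 1.27. Among the 8 genes, 5 had their highest value in replicate 2 in both lines, against 3611 of all 17297 genes.

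HIF targets, of which 23 of 24 listed genes were in the table, followed the library order of BNIP3 and BNIP3L only in part. Replicate 2 was the highest library in both lines for 15 of the 23, but replicate 3 was not always the lowest. P4HA2, PFKFB3, SLC2A1, LDHA and ENO1 were lowest in the std library of both lines, and EGLN3 was highest in replicate 3 of both. NDRG1 and PFKFB4, chosen after their values were seen, deviated from their own 6-library mean by 0.40 and 0.62 on the log2 scale in replicate 2 of pBabe-vector and by 0.82 and 1.02 in replicate 2 of pBabe-GNA13. Between the lines, 0 of the 23 were called with line only and 6 with the block, 4 higher and 2 lower (19.7% of all genes were called with the block), and the median log2 fold change was 0.01. INSIG2, which retains the cholesterol sensor in the endoplasmic reticulum, and ALDOA, a glycolytic enzyme, were lower (−0.47 and −0.34, edgeR adjusted p = 1.62e-05 and 0.000414 with the block, 0.706 and 0.639 without). HK2, a hexokinase of the outer mitochondrial membrane, was higher (0.27, edgeR adjusted p = 0.00228 with the block, 0.597 without), but not without the pair of replicate 2 (0.134 with the block). What set the replicate 2 and replicate 3 cultures apart was not tested.

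**Figure D3:**
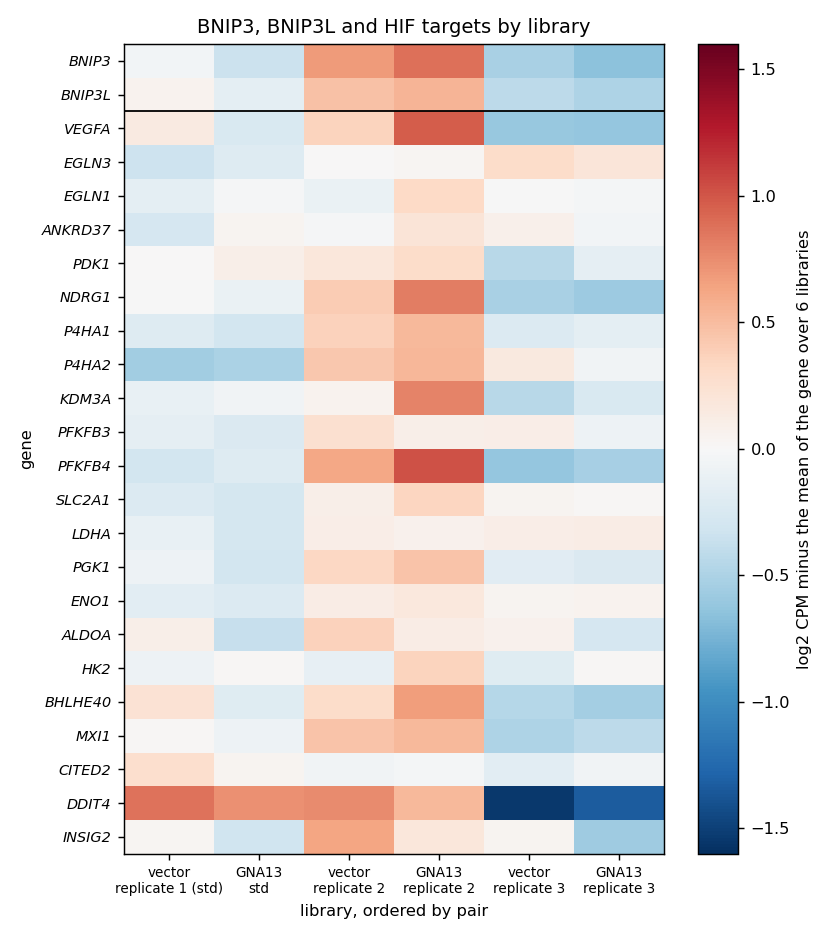
Log2 CPM minus the mean of each gene over the 6 libraries, as colour, for BNIP3 and BNIP3L (above the line) and the 22 HIF targets with a mean of at least 1 CPM, with libraries ordered by pair. BNIP3 is at 0.68 and 0.89 in the replicate 2 libraries and at −0.52 and −0.66 in the replicate 3 libraries of pBabe-vector and pBabe-GNA13, and DDIT4 reaches −1.54 in replicate 3 of pBabe-vector.

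The remaining members had log2 fold changes close to 0. PINK1 had 10.9, 13.6 and 10.4 CPM in the pBabe-GNA13 libraries and 9.35, 11.9 and 10.6 CPM in the pBabe-vector libraries (chromosome 1, 20633458 to 20651511). The lines overlapped, and the log2 fold change was 0.13 (95% interval −0.24 to 0.51, edgeR adjusted p = 0.941 without the block and 0.383 with it). An antisense gene, PINK1-AS, overlaps PINK1, and whether the counting used strand is not given in the sources used here, so reads of the partners cannot be told apart. FKBP8, a receptor that also folds client proteins as an immunophilin, had 334, 336 and 265 CPM in pBabe-GNA13 and 312, 369 and 263 CPM in pBabe-vector (chromosome 19, 18531751 to 18544077). Its log2 fold change was −0.01 (95% interval −0.37 to 0.35, edgeR adjusted p = 1), and with the block the interval narrowed to −0.12 to 0.10. TAX1BP1, an adaptor for ubiquitin-marked cargo, had 138, 143 and 121 CPM in pBabe-GNA13 and 148, 147 and 136 CPM in pBabe-vector (chromosome 7, 27739331 to 27844564). It was lower in 3 of 3 pairs by a log2 fold change of −0.10, which no fit called (edgeR adjusted p = 0.911 without the block and 0.198 with it).

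FUNDC1, a receptor linked to hypoxia, was at or below the floor in every library (chromosome X, 44523639 to 44542859). It had 1, 3 and 2 reads in the pBabe-GNA13 libraries and 1, 0 and 1 reads in the pBabe-vector libraries, where 3 reads are 0.0715 to 0.0935 CPM. No fold is given for it. MAOA, which ends at 43746817, lies before it, and KDM6A, which starts at 44873188, lies after it. Both were picked by name and not as its nearest genes. They were well expressed, MAOA at 217 to 335 CPM and KDM6A at 160 to 201 CPM over the 6 libraries. Whether the near absence of FUNDC1 reads comes from the cells or from the counting was not tested.

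With line only, edgeR called 0 genes of any pathway list. The counts at an unadjusted p under 0.05 were 2 of 12 for the PINK1 pathway, 4 of 22 for autophagy initiation, 1 of 21 for the lysosome, 13 of 39 for p53 targets and 0 for the other lists, where 8.46% of all genes passed. DESeq2 called 1 of the 21 lysosomal genes and 2 of the 39 p53 targets, against 1.57% of all genes.

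Genes that work with PINK1 were mixed. Of 14 listed genes 12 were in the table. With the block, 5 of the 12 were higher and 1 was lower, beside 9.32% and 10.4% of all genes, and the median log2 fold change was 0.11. PGAM5, a mitochondrial phosphatase, and USP30, which removes ubiquitin from mitochondria, were both at 0.38 (edgeR adjusted p = 5.98e-06 and 0.000784 with the block, 0.725 and 0.486 without). Both lie on chromosome 12, and relative to it they were at 0.08 and 0.09 and not called (edgeR adjusted p = 0.350 and 0.548 with the block). FBXO7, an adaptor of a ubiquitin ligase, was lower at −0.33 (edgeR adjusted p = 5.78e-05 with the block, 0.325 without), and at −0.18 relative to chromosome 22 (0.0284). Relative to their chromosomes, 0 of the 12 were called higher and 1 lower, beside 6.8% and 7.07% of all genes.

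Other receptors and factors that restrain mitophagy, 14 genes all in the table, gave 2 higher and 1 lower with the block and a median of 0.02, near the 9.32% and 10.4% of all genes. The adaptor CALCOCO2 was lower at −0.24 (edgeR adjusted p = 0.00177 with the block, 0.751 without), and the autophagy receptor SQSTM1 (p62) was higher at 0.26 (0.00871 with the block, 0.917 without). Without the pair of replicate 2, SQSTM1 was not called with the block (edgeR adjusted p = 0.206). PPTC7, a mitochondrial phosphatase that limits BNIP3 and BNIP3L, was higher at 0.19 (edgeR adjusted p = 0.0139 with the block, 0.666 without) and, relative to chromosome 12, at −0.10 and not called. It was not called with the block without the std pair either (edgeR adjusted p = 0.0968).

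The general autophagy machinery showed few calls. Of 16 genes of the ATG8 family and its conjugation in the table, 2 were higher with the block and 0 lower, with a median of −0.03 (9.32% of all genes were called higher and 10.4% lower). They were GABARAPL1, an ATG8 protein, at 0.23 (edgeR adjusted p = 0.0127 with the block, 0.910 without), and ATG4D, an ATG8 protease, at 0.20 (0.0398 with the block, 0.714 without). GABARAPL1 was not called without the std pair or without that of replicate 2 (edgeR adjusted p up to 0.111), nor ATG4D without any of the 3 pairs (up to 0.280). MAP1LC3B, which encodes LC3B, was at −0.12 and not called (0.107 with the block). Among 22 initiation genes, 2 were higher and 3 lower with the block, near the same shares of all genes, with a median of −0.04. The paralogous starter kinases went in opposite directions, ULK1 at 0.48 (edgeR adjusted p = 2.87e-07 with the block, 0.554 without) and ULK2 at −0.28 (0.000524 with the block, 0.696 without), and ULK1 was still higher relative to chromosome 12 (0.18, edgeR adjusted p = 0.0253). PIK3C3, the lipid kinase VPS34, was lower at −0.29 (edgeR adjusted p = 0.000912 with the block, 0.525 without).

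Lysosomal genes were mostly below 0 in small amounts. Of 21 genes, 19 had a negative log2 fold change, as did 8707 of all 17297 genes, and the median was −0.10. With the block 3 were called lower and 1 higher, next to 10.4% and 9.32% of all genes, so the number of calls was near that of genes in general. CTSA, a lysosomal carboxypeptidase, had 26.7, 25.7 and 28.7 CPM in pBabe-GNA13 and 41.2, 37.7 and 38.7 CPM in pBabe-vector, without overlap. Its log2 fold change was −0.54 (edgeR adjusted p = 5.70e-07 with the block, 0.161 without) and −0.33 relative to chromosome 20 (0.000604). CTSD, a lysosomal protease, was at −0.22 (edgeR adjusted p = 0.00462 with the block, 0.903 without). CTSD was not called without the pair of replicate 3 (edgeR adjusted p = 0.119). Of 8 mitochondrial proteases, none was called in either fit, and the median was −0.04. The nearest to a call was SPG7 at −0.14 (edgeR adjusted p = 0.0583 with the block), followed by CLPP and YME1L1, at −0.07 and −0.06.

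As SPATA18 is a p53 target, other targets of p53 were read beside it. The list was written with earlier results of these data known, so its counts are a description. Of 40 listed genes 39 were in the table, and SPATA18 was not one of them. With line only 0 were called, the 13 at an unadjusted p under 0.05 were all higher, and the 2 that DESeq2 called were MDM2 and BTG2. With the block 19 were higher and 1 lower, that is 48.7% higher against 9.32% of all genes, and relative to the chromosome medians 18 were higher and 1 lower (6.8% and 7.07% of all genes). The median log2 fold change was 0.23, and 29 of the 39 were higher in 3 of 3 pairs, as were 22.6% of all genes. In 15 of them every pBabe-GNA13 library lay above every pBabe-vector library, as in 7.3% of all genes. Apart from EDA2R, for which only a ratio to the floor is given, all of these differences were smaller than the 2.98 of SPATA18. SPATA18 was chosen for its rise, so that order follows from the choice and is not a result.

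BTG2, an antiproliferative factor, had 46.2, 48.8 and 35.8 CPM in pBabe-GNA13 and 28.2, 30.9 and 24.3 CPM in pBabe-vector. All 3 pBabe-GNA13 values lay above all pBabe-vector values (log2 fold change 0.65, edgeR adjusted p = 1.41e-08 with the block and 0.265 without). MDM2, the ubiquitin ligase that degrades p53, was likewise higher in all libraries, at 167 ± 9.06 against 117 ± 9.52 CPM (SD, n = 3). Its log2 fold change was 0.52 (edgeR adjusted p = 2.72e-08 with the block and 0.176 without) and 0.23 relative to chromosome 12 (0.00325). CDKN1A, the cell cycle inhibitor p21, had 105, 153 and 132 CPM in pBabe-GNA13 and 77.3, 114 and 93.0 CPM in pBabe-vector. It was higher in 3 of 3 pairs although the lines overlapped (log2 fold change 0.46, edgeR adjusted p = 2.42e-07 with the block and 0.550 without). TP53INP1, itself an inducer of autophagy, was the 1 target called lower (−0.31, edgeR adjusted p = 5.25e-05 with the block, 0.910 without).

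EDA2R, a death domain receptor, had 0 reads in each pBabe-vector library. Its mean level in pBabe-GNA13 was 1.56 times that of 3 reads per pBabe-vector library, taken as the floor. That ratio leaves out the counting error of the pBabe-GNA13 reads. EDA2R was called with the block (edgeR adjusted p = 0.0391) but not without any of the 3 pairs. With EDA2R at that ratio the median of the list stayed at 0.23.

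**Figure D4:**
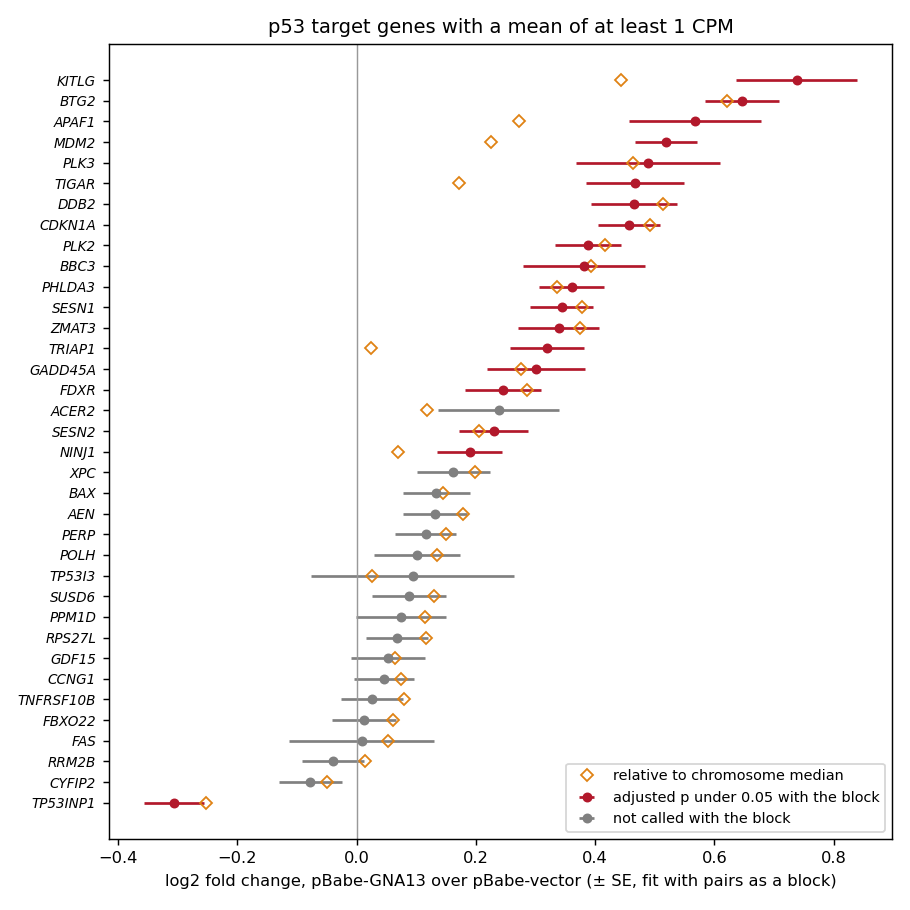
Log2 fold change of pBabe-GNA13 over pBabe-vector with its standard error from the fit with pairs as a block for the 36 p53 targets with a mean of at least 1 CPM, in red where called with the block and in grey where not, with open diamonds for the value relative to the chromosome median. BTG2 (0.65) and MDM2 (0.52) lie near the top and TP53INP1 (−0.31) is the lowest, and MDM2 and TIGAR, both on chromosome 12, lie at 0.23 and 0.17 when read against it.

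Genes around SPATA18 were taken by position and not by their values. SPATA18 was chosen for its rise, so their smaller differences are not a result beside its own. The nearest gene of the table before it, SGCB, 13005 bases away, was at −0.10, and the next, DCUN1D4, 134467 bases away, was also at −0.10 (edgeR adjusted p = 0.964 and 0.902). After it, USP46, 493661 bases away, was at −0.08 (edgeR adjusted p = 0.966). The second gene after it, the noncoding RNA DANCR (KIAA0114 in the table), was lower at −0.56, with 202 to 215 CPM in pBabe-GNA13 and 296 to 325 CPM in pBabe-vector (edgeR adjusted p = 5.20e-09 with the block and 0.116 without). The 10 nearest genes of the table are not all close to SPATA18, as FRYL, OCIAD1 and OCIAD2 lie 3144367 to 3270982 bases before it. Over the 10 the log2 fold changes ran from −0.56 to 0.39 with a median of −0.08. With line only 0 were called, 1 by DESeq2 and 2 with the block, beside 0.139%, 1.57% and 19.7% of all genes.

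The genes whose log2 CPM followed SPATA18 most closely over the 6 libraries were SSH1 (Pearson r = 0.999), ERC1 (0.994) and PPM1H (0.993), among 14058 genes with a mean of at least 1 CPM. All 3 lie on chromosome 12, and GNA13 had r = 0.989. With 3 libraries a line, such values follow mainly from a difference between the lines of any size, and log2 fold changes were 0.35 for SSH1, 0.24 for ERC1 and 1.06 for PPM1H. For deviations from the line means, the closest were S100A13 (0.995), CTD-2561B21.8 (0.994) and KB-318B8.7 (0.993), each below 6 CPM in all libraries.

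Markers of ciliated, spermatogenic and other cells were read beside SPATA18. Of 23 markers of motile cilia and spermatogenesis, 12 were in the table, and their summed level was 68.2 to 81.5 CPM in pBabe-GNA13 and 60.6 to 74.9 CPM in pBabe-vector. FOXJ1, the main regulator of motile cilia, was at most 0.44 CPM in any library. With the block 2 of the 12 were higher and 0 lower, beside 9.32% and 10.4% of all genes, and the median log2 fold change was 0.06. RFX3, a regulator of cilia genes, was at 0.59 and DNAH5, an axonemal dynein, at 0.34 (edgeR adjusted p = 3.13e-05 and 0.0219 with the block, 0.648 and 0.817 without), and RSPH1, a radial spoke protein, was at −0.24 and not called (0.160 with the block). Without the pair of replicate 2, DNAH5 was not called (edgeR adjusted p = 0.350).

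The 10 luminal prostate cancer markers, all in the table, summed to 7078 to 10184 CPM in pBabe-GNA13 and 6174 to 9143 CPM in pBabe-vector. The 3 basal markers summed to 4.49 to 8.26 CPM in pBabe-GNA13 and 2.38 to 2.48 CPM in pBabe-vector, and the 4 stromal markers to 23.0 to 30.7 and 18.1 to 33.2 CPM. Of the 3 blood markers only HBB was in the table, at 30.3, 0 and 33.5 CPM in the pBabe-GNA13 libraries and 3.05, 0 and 3.08 CPM in the pBabe-vector libraries. With the block, 4 of the 10 luminal, 2 of the 3 basal and 2 of the 4 stromal markers were called higher. The block also called 1 stromal marker lower and HBB higher. Of all genes, the block called 9.32% higher and 10.4% lower. None of these markers was called with line only, where 0.139% of all genes were. DESeq2 called 1 basal and 1 stromal marker, against 1.57% of all genes. In the replicate 2 libraries HBB, the basal keratin KRT5, TP63 and the collagen COL1A2 were at 0 in both lines. The basal sum there came from KRT14 alone, at 4.49 CPM in pBabe-GNA13 and 2.48 CPM in pBabe-vector, and the stromal sum was 23.0 and 33.2 CPM. The part of RNA from other cells in the SPATA18 difference was not tested.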

How the data were processed

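The samples were 6 RNA-seq libraries of LNCaP cells, 3 from pBabe-vector and 3 from pBabe-GNA13. The authors checked reads with FastQC (0.11.7 in the submitters' processing notes), aligned them with STAR to Gencode 38 and counted them with featureCounts. The deposited values are whole-number read counts for 17297 gene symbols. Library totals ran from 33002160 to 40628970, and 0 columns were left out. Floors cover counting error only, because reads lacking molecular identifiers can repeat a molecule. The tag std marks 1 library of each line and its meaning is not given in the sources used here. The tagged pBabe-GNA13 library has the number 2 in its heading, as another library of that line does, and is tied to its line only.

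Counts were normalized by TMM and fitted with edgeR 4.0.16 (glmQLFit and glmQLFTest, R 4.3.3) over all genes without a filter, with line as the only term and Benjamini-Hochberg adjustment, and called at an adjusted p under 0.05. Deviations from the line means correlated at 0.659 (std pair), 0.807 (replicate 2) and 0.888 (replicate 3) over 12778 genes, and at −0.736 to 0.125 for libraries of different pairs, so the libraries were treated as pairs. Alternatives were DESeq2 1.42.0, upper-quartile factors, keeping genes whose mean log2 CPM was over 1, limma-trend (limma 3.58.1), the pair as a block, the block with each chromosome centred on its median, and leaving out each library or pair. Limma-trend with the block was chosen after seeing the data. The fits were tested on simulated data. Levels are TMM-normalized CPM, with SD over 3 libraries. Coordinates and chromosomes are from Gencode 44 (GRCh38), in which 14482 symbols were placed. Permutation tests took every split of the 6 libraries into 3 and 3, with NumPy 2.4.6.

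The members, gene lists and tests were chosen with earlier results of these data known. The text names the 10 members, GNA13, the 3 genes of each list with the smallest p with the block, any list gene called without it, the 2 nearest neighbours of SPATA18 on each side, and the 3 genes most like it in level and in deviation. A few genes that the rule names are not reported here. Marker genes and the other genes named are outside this rule, and their values were known when they were picked.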

Additional observations from a re-analysis of the deposited data

How the results depend on the processing

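The log2 fold change of SPATA18 ran from 2.77 to 3.21 over the alternatives. Because SPATA18 was chosen for its rise in these same libraries, that range describes its size and lends no support to its direction. The median of the p53 targets stayed between 0.17 and 0.28. Counts moved most with the pairing. Over all genes, 24 were called with line only, 271 by DESeq2, 10 after the filter, 5 by limma-trend, 2 to 15 with 1 library left out, 3407 with the replicate block, 433 by limma-trend with the block, 2400 with the block and centred chromosomes, and 2250 to 3266 with the block and 1 pair left out (2550 without replicate 2). Of the 9 mitophagy genes, 0 were called with each library left out, 3 with the block, 2 with centred chromosomes, 1 by limma-trend with the block, and 2 to 4 with 1 pair left out. Over all lists 3 were called by DESeq2, 1 by limma-trend, 48 with the block, 36 with centred chromosomes, 10 by limma-trend with the block, and 37 to 45 with 1 pair left out (39 without replicate 2). For p53 targets these counts were 2, 1, 20, 19, 6, and 15 to 20 (18 without replicate 2). For the 10 neighbours DESeq2 called 1, the block 2, centred chromosomes 2, limma-trend with the block 1, and 1 to 2 were called with 1 pair left out. The cause of these moves was not tested.

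Directions near 0 turned. BNIP3 was −0.074 by limma-trend with or without the block, −0.072 with the block in edgeR, −0.028 with centred chromosomes, −0.61 to 0.39 with 1 library left out (−0.61 without replicate 2 of pBabe-GNA13, −0.08 without replicate 1 and −0.24 without replicate 3 of pBabe-vector), and −0.22 to 0.04 with the block and 1 pair left out (−0.22 without replicate 2, −0.032 without replicate 3). BNIP3L was −0.40 to 0.19 with 1 library left out (0.04 without the std library and 0.16 without replicate 3 of pBabe-GNA13, 0.19 without replicate 2 of pBabe-vector). PHB2 was −0.11 with centred chromosomes. FKBP8 was 0.0029 after the filter, 0.0025 with centred chromosomes, −0.13 to 0.12 with 1 library left out (0.10 without replicate 3 of pBabe-GNA13, 0.12 without replicate 2 of pBabe-vector) and 0.051 with the block and without replicate 2. FUNDC1 lay at the floor, so depth limits it in every fit.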

Other observations

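Among p53 targets outside the genes named above, GDF15, a stress cytokine linked to mitochondrial dysfunction and chosen after its values were seen, varied far more between cultures than between the lines. It had 893, 1905 and 231 CPM in the pBabe-GNA13 libraries (std, replicate 2, replicate 3) and 990, 1532 and 233 CPM in the pBabe-vector libraries. The highest library over the lowest was 8.24 in pBabe-GNA13 and 6.58 in pBabe-vector, ratios that 0.164% and 0.242% of 14059 genes exceeded. DDIT4, an inhibitor of mTORC1 signalling that is induced by stress, had ratios of 4.16 and 5.32. Both were lowest in replicate 3 of each line, as were BNIP3, BNIP3L and OPTN.

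FUNDC2, the paralog of FUNDC1, had 41 to 56 CPM, in contrast to at most 3 reads of FUNDC1 in any library.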
